A study of Mus musculus with 2 samples.

Results

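10 genes of cartilage matrix, joint lubrication and chondrocyte identity were followed here: Prg4, Acan, Comp, Chad, Cilp, Cytl1, Clu, Fn1, Sox9 and Sox5. They are 10 of the 32285 genes in the deposited counts and were chosen by their levels and joint variation among stromal barcodes in earlier results of the same data, and were then found by symbol. Those values, and the leukocyte levels they are set against, are therefore descriptions. The stromal cluster held 209 of the 2349 barcodes, and the other 2140 barcodes were leukocytes.

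Prg4 encodes lubricin, the mucin-like glycoprotein that coats cartilage and the synovial lining and lets joint surfaces glide. Cartilage itself is a gel of aggrecan (Acan) held in a collagen network, to which smaller glycoproteins such as Comp, Chad and Cilp bind. Sox9 is the master transcription factor of chondrocytes, and Sox5 acts beside it on the genes of cartilage matrix. Fn1 encodes fibronectin, a matrix glycoprotein that many mesenchymal cells and some macrophages secrete.

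The study asked how osteal macrophages (Omacs), which lie on bone surfaces, change after ovariectomy (OVX), a mouse model of estrogen loss. Female BALB/c mice underwent OVX or a sham operation at 10 weeks of age, without further treatment, and femurs and vertebrae were taken 4 weeks later. Periosteum was removed, and for femurs the epiphyses were cut off and the marrow was rinsed out. Bone of 20 mice per condition was digested with trypsin and then collagenase, and cells were sorted with antibodies to CD11b, F4/80 and CD68. OVX cells carried hashtag 1 and sham cells hashtag 2, and all were run together in 1 reaction of the 10x 3′ v3.1 kit, so that each condition was 1 pool with no replicate. Each deposited value is a count of unique molecular identifiers (UMIs), that is, of captured RNA molecules. Levels are given as UMIs per 1000000 in a group of barcodes (CPM) or, for single barcodes, as UMIs per 10000.

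The 209 barcodes carried stromal markers far above leukocyte markers, although the label of the sample is macrophage. Of 10 macrophage markers 4 had no UMI in them, which allows at most 3 of their 5469894 UMIs for each gene, namely Adgre1, which encodes F4/80 (7.53 CPM in leukocytes), and C1qa, C1qb and C1qc, which were at 0.08 CPM or less in leukocytes as well. Apoe, which stromal cells also express, was at 193 CPM (6.63 in leukocytes), Mertk at 12.6 CPM (1.31), and Cd68, a target of the sort, at 12.8 CPM (71.4). The 10 markers summed to 225 CPM in stromal barcodes and 441 CPM in leukocytes. The summed level of the 15 stromal markers was 19042 CPM in these barcodes and 113 CPM in leukocytes, against 151 and 11015 CPM for the 12 leukocyte markers. Decorin (Dcn) alone supplied 16524 of the 19042 CPM. Of the 15 stromal markers 9 reached 50 CPM, and Col1a1 was at 17.0 CPM. Depth differed as well, with a median of 20087 UMIs (555 to 141565) in stromal and 3988 in leukocyte barcodes, and 28 stromal barcodes had fewer than 5000 UMIs. Neutrophil markers summed to 2366 CPM in stromal barcodes and 261138 CPM in leukocytes. Of the 209 stromal barcodes, 2 had more than 20% leukocyte UMIs among their marker UMIs, and a further 12 had fewer than 10 marker UMIs and were not judged. The part that stray leukocyte RNA or doublets play in the values was not tested. HTODemux, which classes a barcode from its hashtag counts alone, placed 38 stromal barcodes in OVX and 54 in sham, while 6 carried both hashtags and 111 neither.

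Markers of the cell types best known for aggrecan and lubricin were present in part. Of all 32285 genes, 2958 reached 50 CPM in stromal barcodes. Of 7 chondrocyte markers, 5 were at 50 CPM or more in stromal barcodes, but Matn3 (1.65 CPM) and Col9a1 (1.10 CPM) were near 0. Of 5 synovial lining markers, 3 reached 50 CPM, with Clic5 and Tspan15 at 4.94 CPM each. Both lists hold genes followed here (Acan and Sox9, and Prg4), which therefore cannot name the cells. They are called stromal barcodes throughout.

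Prg4 was the third most abundant gene of the stromal barcodes. It stood at 25966 CPM (exact Poisson 95% interval 25831 to 26101, which like all intervals here covers counting error only). Barcodes ranged from 0 to 1088 UMIs per 10000, with a median of 189, and 95.7% of the 209 barcodes had at least 1 UMI. The 21 barcodes with most Prg4 UMIs held 44.3% of them, whereas the deepest 21 barcodes held 29.2% of all UMIs. Lubricin RNA was thus present in nearly all stromal barcodes at widely differing levels. Prg4 lies on chromosome 1 (GRCm38, 150449412 to 150466165, minus strand).

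Acan, the core protein of the large aggregating proteoglycan, was far lower. Its level was 725 CPM (703 to 748), with a median of 5.26 and a highest value of 40.4 UMIs per 10000, and 83.3% of barcodes had a UMI. The 21 barcodes with most Acan UMIs held 39.9% of them, against 44.3% for Prg4. Acan is on chromosome 7 (79053483 to 79115099, plus strand).

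The smaller matrix glycoproteins were concentrated in fewer barcodes. Comp, a pentameric protein that binds collagens, stood at 973 CPM (947 to 1000) with a median of 2.55 and a highest value of 150 UMIs per 10000. Chad, chondroadherin, a leucine-rich protein to which chondrocytes attach, stood at 607 CPM (587 to 628) with a median of 0.975 and a highest value of 97.5. Cilp, a protein of the middle zone of cartilage, stood at 807 CPM (783 to 831) with a median of 4.03 and a highest value of 57.3. The 21 barcodes with most UMIs of the gene held 66.6% of the Chad, 58.9% of the Comp and 56.2% of the Cilp UMIs. Over all 2958 genes at 50 CPM or more in stromal barcodes, the median of this share was 37.4%. Chad and Comp lie on chromosomes 11 (94565047 to 94569127) and 8 (70373558 to 70382066), and Cilp on chromosome 9 (65265180 to 65280605), all on the plus strand.

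Cytl1, a small secreted protein of cartilage, was the most uneven of the genes. It stood at 354 CPM (338 to 370), its median was 0.30 UMIs per 10000 and its highest value 153. A single barcode held 18.7% of its UMIs, and the top 21 held 76.7%. Its overdispersion, the variance between barcodes beyond counting error relative to the squared mean, was 7.41, above that of 99.0% of the 2958 genes, whose median was 0.154. Cytl1 is on chromosome 5 (37735519 to 37739820, plus strand).

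Clu, clusterin, a secreted chaperone abundant at cartilage surfaces, stood at 1452 CPM (1420 to 1484), with a median of 8.57 and a highest value of 90.7 UMIs per 10000. Fn1 was the eighth most abundant gene, at 10389 CPM (10304 to 10475), with a median of 88.7 and a highest value of 448. Fn1 UMIs were found in 96.7% of stromal barcodes and Clu UMIs in 81.8%. The top 21 barcodes held 36.9% of the Fn1 UMIs, close to the median of all genes, so that Fn1 was among the most evenly spread of the set. Its overdispersion of 0.361 was still above that of 79.4% of the 2958 genes, whose median was 0.154. Clu is on chromosome 14 (65968483 to 65981547, plus strand) and Fn1 on chromosome 1 (71585520 to 71653200, minus strand).

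The transcription factors differed in level. Sox9 stood at 1076 CPM (1048 to 1103), with a median of 8.31, a highest value of 82.6 and a UMI in 87.6% of barcodes. Sox5 was the lowest of the genes at 239 CPM (227 to 253), with a median of 1.95 and a highest value of 18.3. Its overdispersion of 0.244 was the smallest of the set, against 0.744 for Sox9 and 0.361 for Fn1. Sox9 is on chromosome 11 (112782224 to 112787760, plus strand), and Sox5 spans chromosome 6 from 143828425 to 144781977 (minus strand).

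**Figure D1:**
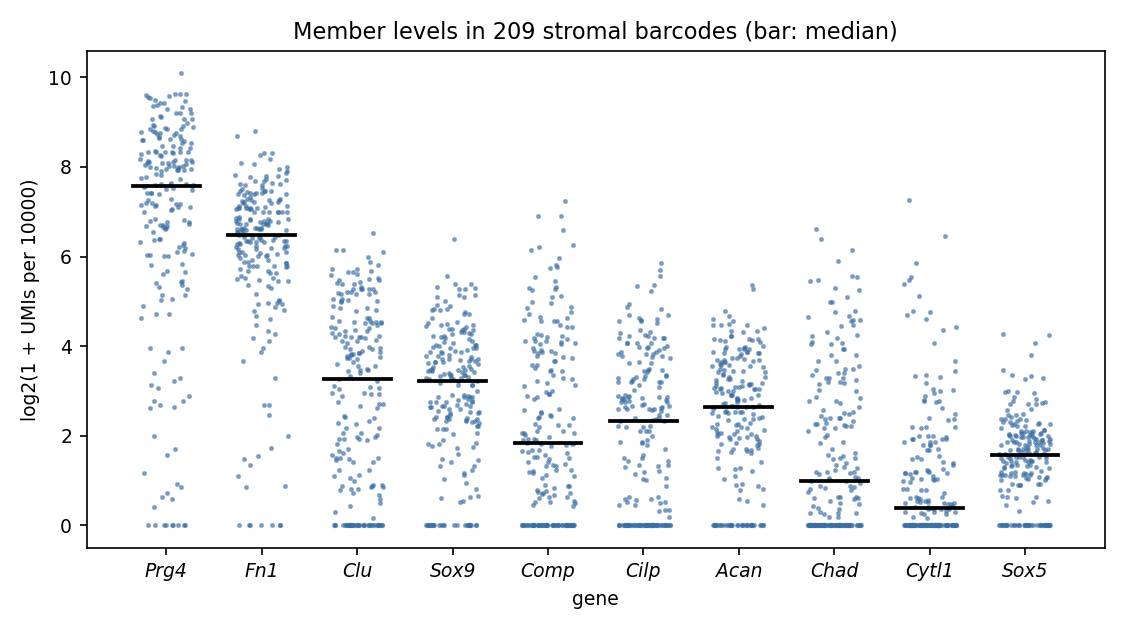
Level of each gene in the 209 stromal barcodes, as log2(1 + UMIs per 10000), with genes ordered by CPM; each point is a barcode and the bar is the median. Prg4 and Fn1 sit well above the other genes, and Chad and Cytl1 have many barcodes at 0 beneath a long upper tail.

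By summed level the order was Prg4, Fn1, Clu, Sox9, Comp, Cilp, Acan, Chad, Cytl1 and Sox5. These are molecule counts of a 3′ assay, which are not scaled by gene length. Intervals of neighbours did not overlap, but they leave out the spread between barcodes, in which all genes from Clu to Sox5 overlapped widely. With equal weight per barcode Comp (1099 CPM) passed Sox9 (1069 CPM), and Acan (703 CPM) and Cilp (700 CPM) were level, so these neighbours in the order were not separated.

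Most stromal barcodes held most of the genes at once. The median barcode had UMIs of 9 of the 10, 68 of 209 had all 10 and 18 had at most 3. Detection depends on depth, so each barcode was also thinned to 5000 UMIs, which left 181 barcodes. The median was then 8 genes, 14 barcodes had all 10 and 95 had at least 8. Among the 2140 leukocyte barcodes the median was 1 and 822 had none.

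Upstream sequence is shown for Chad and Cytl1, whose levels went together among stromal barcodes, and beside them for Cilp and Acan, of which Cilp varied apart from Chad. RefSeq promoter entries on GRCm38.p6 matched 5 of the 10 genes (Chad, Cytl1, Cilp, Acan and Sox5) and not Prg4, Fn1, Comp, Clu or Sox9. The 250 bases before the annotated start are given 5′ to 3′ for Chad (chr11:94564797-94565046, plus strand), Cytl1 (chr5:37735269-37735518, plus strand), Cilp (chr9:65264930-65265179, plus strand) and Acan (chr7:79052976-79053225, plus strand). Capitals mark the motif of the TATA type that was searched for, TATANA.
Chad: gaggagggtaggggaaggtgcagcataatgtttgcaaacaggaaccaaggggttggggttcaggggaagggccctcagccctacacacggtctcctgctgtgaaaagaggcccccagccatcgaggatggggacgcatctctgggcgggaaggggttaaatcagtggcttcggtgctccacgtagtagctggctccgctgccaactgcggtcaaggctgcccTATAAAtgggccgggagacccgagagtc
Cytl1: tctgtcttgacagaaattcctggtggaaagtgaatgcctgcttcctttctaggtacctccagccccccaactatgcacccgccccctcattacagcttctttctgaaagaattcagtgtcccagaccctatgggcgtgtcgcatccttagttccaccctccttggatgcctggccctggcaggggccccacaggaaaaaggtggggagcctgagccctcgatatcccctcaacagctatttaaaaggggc
Cilp: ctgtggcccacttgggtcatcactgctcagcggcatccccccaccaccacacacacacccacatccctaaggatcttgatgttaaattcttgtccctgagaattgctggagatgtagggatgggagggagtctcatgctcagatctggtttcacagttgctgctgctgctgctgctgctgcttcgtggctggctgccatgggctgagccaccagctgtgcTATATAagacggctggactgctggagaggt
Acan: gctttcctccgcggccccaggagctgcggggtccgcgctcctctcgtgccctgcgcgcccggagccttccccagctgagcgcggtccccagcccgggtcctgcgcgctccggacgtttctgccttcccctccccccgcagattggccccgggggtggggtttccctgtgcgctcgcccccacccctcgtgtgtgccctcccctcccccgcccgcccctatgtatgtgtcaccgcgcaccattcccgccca
TATANA began 28 bases before the start in Chad and 30 bases before it in Cilp (where the match reads on both strands), and neither Cytl1 nor Acan held it. Of all 32851 promoters of the table, 22.6% had the motif on either strand in the same window. The Sox-type letters ACAAAG (16.5% of promoters) and the AP-1 letters TGANTCA (6.75%) were in none of the 5 entries, and the Sox-type letters ACAATG (10.7%) were in the Sox5 entry alone, 154 bases before its start. That entry (143947107 to 143947356 on chromosome 6) belongs to a start inside the span of Sox5 given above and not to its outermost start. TATANA also occurred in the Sox5 entry, from 191 bases before the same internal start. The Acan window ends at 79053225 and does not adjoin the start of the Acan span given above (79053483). The GC content was 74.4% for Acan, 60.4% for Chad, 56% for Cilp, 54.8% for Cytl1 and 39.6% for Sox5, against a median of 52.4% over all promoters. These letters are descriptions of 250-base windows, and the motifs were chosen with the sequences in view.

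The genes varied together in 2 main groupings. The strongest pair was Chad with Comp (Pearson r = 0.76 over 209 barcodes, on log counts per 10000, and 0.67 over the 181 thinned barcodes). Cytl1 joined them, with r of 0.62 to Chad and 0.46 to Comp (0.59 and 0.40 thinned). By Pearson r the second strongest pair was Prg4 with Fn1 (0.68, thinned 0.62). By Spearman correlation it came after Chad with Cytl1 (rho of 0.54 against 0.56). Prg4 and Chad, the leading genes of these groupings, were nearly unrelated (r = 0.07, also 0.07 thinned). All barcodes share 1 library, and no p was made from them. The 209 include the 18 barcodes with at most 3 of the 10 genes, and their part in the values of r was not tested.

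Clu stood between the groupings. Its r was 0.50 with Prg4 and 0.46 with Fn1, and 0.44 with Comp and 0.43 with Chad. After thinning these values were 0.43, 0.37, 0.42 and 0.46. Acan had similar values with Sox9 (0.47, thinned 0.35), Fn1 (0.45, thinned 0.43) and Chad (0.44, thinned 0.31), and their order changed with thinning and with Spearman correlation (rho of 0.39, 0.33 and 0.46). Cilp was linked to Fn1 (0.44) and Prg4 (0.40) but not to Chad (0.07).

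Sox5 had a low r with its partner factor. Its r with Sox9 was 0.25 and 0.09 in thinned barcodes, and with Chad and Cytl1 it was 0.02 and -0.01. Sox5 with Fn1 went from 0.41 to 0.24 on thinning, and Sox5 with Prg4 from 0.38 to 0.21. Sox5 had a UMI in 59.7% of thinned barcodes, against 85.6% for Sox9. It was the lowest of the genes in level, and the part that its low counts play in these values was not tested.

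In all, 22 of 45 pairs reached r of 0.3, and 16 did so after thinning. The median r was 0.29 as counted and 0.24 thinned. Of all gene pairs with UMIs in 20% or more of stromal barcodes, 0.763% reached 0.3 as counted and 0.0531% after thinning. Joint variation was part of how the genes were chosen, so nothing is read from this difference.

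**Figure D2:**
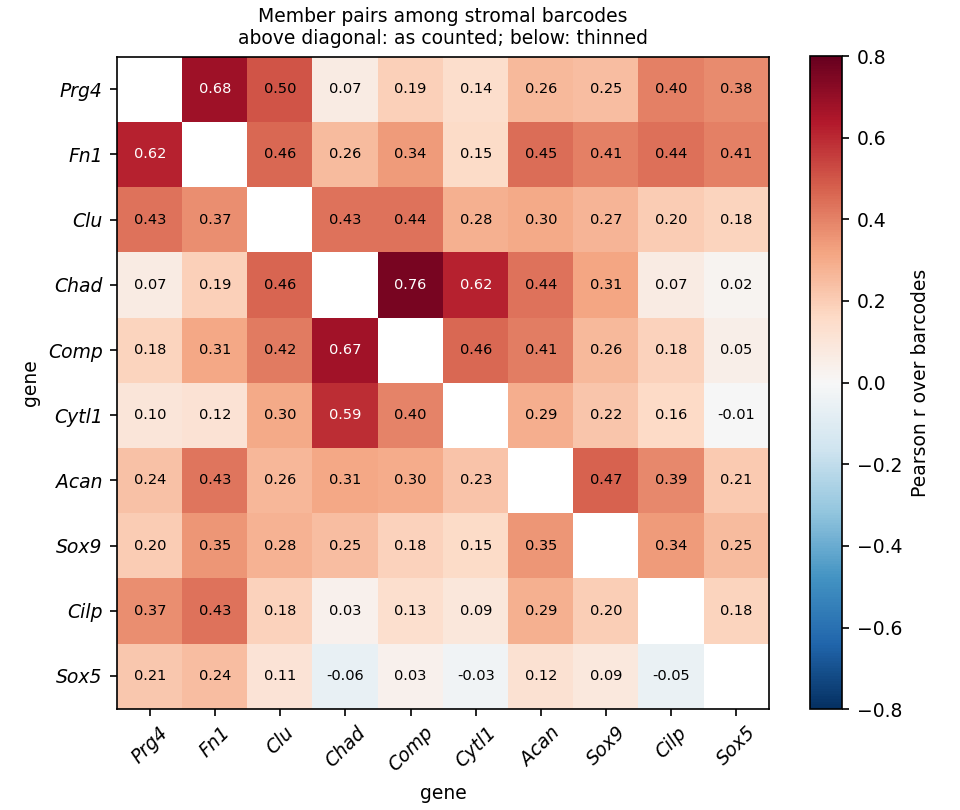
Pearson r for the 45 pairs of genes, above the diagonal over the 209 stromal barcodes as counted and below it over the 181 barcodes thinned to 5000 UMIs; red is positive. Chad, Comp and Cytl1 form a block of 0.46 to 0.76, Prg4 and Fn1 stand at 0.68, and Prg4 with Chad is at 0.07.

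The 3 genes that followed each gene most closely were taken by r over 7304 genes, members of the set included. For Prg4 they were Fn1 (0.68), the small proteoglycan decorin (Dcn, 0.64) and the activin subunit Inhba (0.58). For Chad and Comp the first gene outside the set was Ecrg4, a secreted peptide precursor, with r of 0.62 and 0.60 (thinned 0.58 and 0.54), and Comp also had the actin-severing protein Gsn (0.58). Cytl1 had Ecrg4 at 0.57 and the protease inhibitor Cst3 at 0.59. For Fn1 they were Prg4, the matricellular protein Ccn2 (0.66, thinned 0.65) and the ectonucleotidase Nt5e (0.61).

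Acan and Sox9 shared 2 of their 3 nearest genes, Meltf and Tgm2. Acan had Meltf, a membrane-bound transferrin relative (0.75), the crosslinking enzyme Tgm2 (0.65) and Col6a3 (0.64). Sox9 had Tgm2 (0.56), Meltf (0.54) and the trafficking gene Rab11fip4 (0.53). In thinned barcodes these were 0.47, 0.48 and 0.44 for Acan and 0.52, 0.38 and 0.27 for Sox9, and Acan had the closest relation to depth of the set (r = 0.35 with log UMIs). For Cilp the nearest were Meltf (0.47), Ccn2 (0.46) and Cspg4 (0.44), and for Clu Dcn (0.56), Prelp (0.53) and the chemokine scavenger Ackr2 (0.52). The nearest genes of Sox5 had low values after thinning, with Nt5e at 0.50 and then 0.18, the collagen-modifying enzyme Plod2 at 0.45 and then 0.01, and the annexin Anxa8 at 0.45 and then 0.17. At the other end, the interferon-induced gene Ifitm3 was the most opposed gene for Fn1 (-0.67, thinned -0.58), Prg4 (-0.48, thinned -0.37) and Cilp (-0.30, thinned -0.20).

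Clustering the stromal barcodes again without these genes gave 3 sub-clusters, named by their leading genes. Cxcl5/Ctla2a, led by a neutrophil chemokine, had 100 barcodes, Csta3/Slurp1 had 59 and Saa2/1520401A03Rik, led by serum amyloid genes, had 50. Their median depths were 18209, 25905 and 19213 UMIs. Each holds barcodes of both conditions and of neither hashtag. Endothelial markers had UMIs in few stromal barcodes (Pecam1 in 6.70%, Cdh5 and Emcn in 3.35% each, Kdr in 2.39%). With 4 sub-clusters, 1 of 44 barcodes was led by Cxcl5, Ctla2a and the endothelial gene Emcn. It held Chad at 175, Acan at 207, Cytl1 at 24.3, Sox5 at 204, Cilp at 342 and Sox9 at 491 CPM. Prg4 was at 23146, Fn1 at 5632, Clu at 1605 and Comp at 623 CPM in the same barcodes. Chad was lower still, at 95.2 CPM, in the 43 barcodes led by Ccl20, Mmp13 and Lum. The part that endothelial barcodes play in the differences between sub-clusters, and in the values of r given above, was not tested.

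Prg4 and Chad were highest in different sub-clusters. Prg4 was at 23437 CPM in Cxcl5/Ctla2a, 35215 in Csta3/Slurp1 and 15842 in Saa2/1520401A03Rik, with medians of 145, 316 and 82.0 UMIs per 10000. Chad was at 179, 848 and 1128 CPM in the same order, with medians of 0, 1.81 and 6.0. A Chad UMI was found in 42% of barcodes of the first, 74.6% of the second and 92% of the third. Thus the sub-cluster lowest in Prg4 was the highest in Chad, although single barcodes of all 3 overlapped for both genes.

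Comp and Sox9 followed the order of Chad. Comp was at 598, 1116 and 1544 CPM and Sox9 at 630, 1179 and 1863 CPM. Cytl1 was low in the first sub-cluster (98.8 CPM) and higher in the others (594 and 501 CPM). Clu had 940 CPM in the first and 1875 and 1848 in the others, and Acan 493, 953 and 844. Cilp was at 589, 1180 and 650 CPM, so that its highest sub-cluster was that of Prg4.

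Fn1 and Sox5 hardly differed. Fn1 was at 9297, 11474 and 10922 CPM and Sox5 at 231, 264 and 215 CPM, 1.23-fold from lowest to highest for each. For Fn1 this depended on the split. With 4 sub-clusters it was at 5632 CPM in the barcodes led by Cxcl5, Ctla2a and Emcn. It was at 12670 CPM in those led by Ccl20, Mmp13 and Lum. Sox5 was at 204 and 260 CPM in the same barcodes.

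No gene of the set was 2-fold or more higher in its top sub-cluster than in the next, where 4.7% of the 3445 genes at 50 CPM or more were. From highest to lowest sub-cluster, a comparison added after seeing the data, 6 of the 10 were at least 2-fold apart (Chad 6.30-fold, Cytl1 6.02-fold, Sox9 2.96-fold, Comp 2.58-fold, Prg4 2.22-fold and Cilp 2.00-fold), where 13.5% of all genes were. The sub-clusters were formed from genes that vary with the set, so these counts carry no test.

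**Figure D3:**
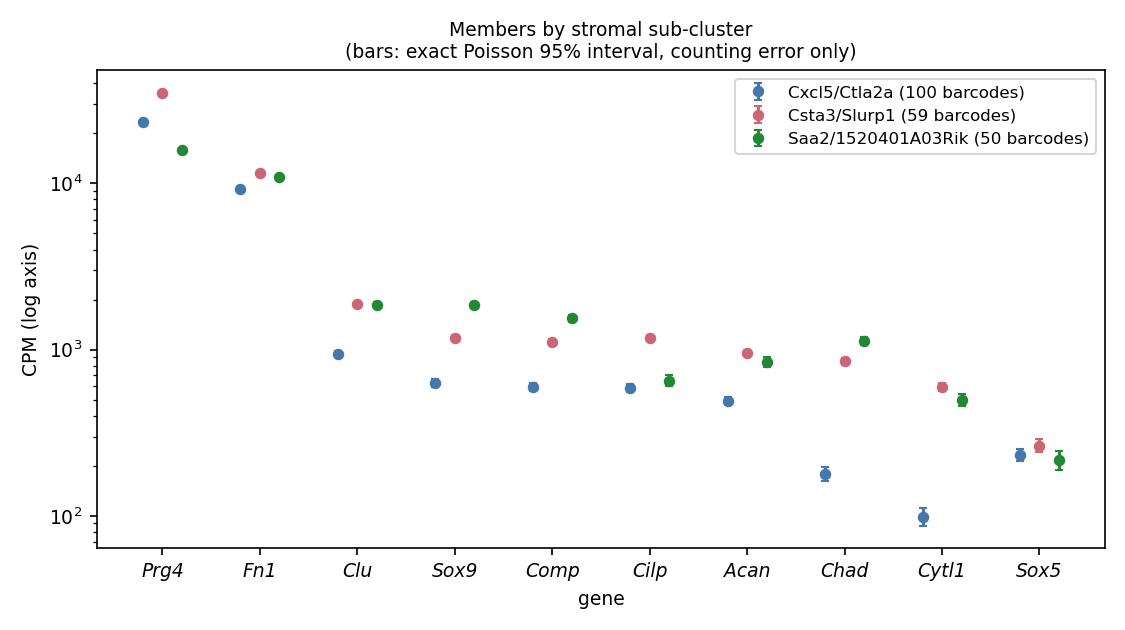
CPM of each gene (log axis) in the 3 stromal sub-clusters; bars are exact Poisson 95% intervals. Chad and Cytl1 are about 6-fold lower in Cxcl5/Ctla2a than in their highest sub-cluster, whereas Fn1 and Sox5 lie almost level in this split.

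Other cartilage genes were present in part. Of 20 further cartilage matrix genes in the file, 11 reached 50 CPM in stromal barcodes. Beside this and each list below, 2958 of all 32285 genes reached that level. The calcification inhibitor Mgp was highest (14928 CPM), followed by Col2a1, the main collagen of cartilage (896 CPM, in 82.3% of barcodes), Ecrg4 (809 CPM) and Col10a1, a collagen of hypertrophic chondrocytes (237 CPM, in 19.6% of barcodes). Matn1, a matrilin of cartilage, had no UMI, which allows at most 3 of 5469894. Cnmd, chondromodulin, followed Chad over the sub-clusters, at 34.8, 103 and 502 CPM. Col2a1 was highest in the same sub-cluster as Prg4, at 686, 1301 and 668 CPM, but its intervals in the other sub-clusters overlapped. Cnmd and Col2a1 were singled out after their values over the sub-clusters were seen.

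Of 16 cartilage regulators, 4 reached 50 CPM, namely Bmp2 (968 CPM), Trps1 (236 CPM), Creb5 (93.4 CPM), a factor that acts on Prg4, and Nfatc1 (74.6 CPM). Ihh and Nkx3-2 had no UMI, and Sox6, the close relative of Sox5, was at 21.9 CPM. Creb5 was higher in leukocytes (153 CPM).

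Of 15 genes of the synovial lining or of lubricin regulation, 7 reached 50 CPM. The highest were the growth factor Hbegf (1237 CPM), the hyaluronan receptor Cd44 (432 CPM), the protease Htra1 (372 CPM) and Foxo1 (234 CPM). Thy1, which marks the sublining, had no UMI. Cd44 was no mark of stromal barcodes, being at 555 CPM in leukocytes.

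Most genes listed for neighbouring tissues were below 50 CPM, as were most of the cartilage regulators. Of 12 tendon and ligament genes, 3 reached 50 CPM, Fmod (171 CPM), Thbs4 (130 CPM) and Tnc (59.2 CPM), while the tendon genes Scx and Tnmd were at 2.56 and 1.65 CPM. Of 12 bone-forming genes, Spp1 alone did (1629 CPM), Col1a1 was at 17.0 CPM, and Bglap, Bglap2, Phex and Sost had no UMI. None of 8 marrow stroma genes reached 50 CPM, the highest being Vcam1 (20.5 CPM), and Adipoq had no UMI.

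Partners of fibronectin were expressed beside it. Of 8 fibronectin receptors, 5 reached 50 CPM, with Sdc4 at 897, Cd44 at 432, Itgb1 at 278 and Itgav at 245 CPM, and Itga5 also passed at 233 CPM. Itga4 and Itga8 had no UMI. Of 12 matrix assembly genes, 4 did, Tgm2 (818 CPM), Tgfbi (260 CPM), Ltbp2 (214 CPM) and Thbs1 (107 CPM), and Thbs1 was higher in leukocytes (1502 CPM).

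In leukocyte barcodes the genes were found at 1.22% of their stromal level or less. Prg4 was at 93.2 CPM and Fn1 at 127 CPM, and the other 8 between 2.37 and 8.68 CPM. All 10 were 10-fold or more higher in stromal barcodes, as were 14.4% of the 3827 genes that reached 50 CPM in at least 1 class. The genes were chosen for this difference, so nothing is read from the count. Between 97.3% and 99.2% of the UMIs of each gene lay in the 209 stromal barcodes.

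Prg4 and Fn1 UMIs were found in many leukocyte barcodes and those of the other 8 genes in few. A Prg4 UMI was found in 37.0% of leukocyte barcodes (Clopper-Pearson 35.0 to 39.1) and an Fn1 UMI in 34.3% (32.3 to 36.4), and the highest count in a leukocyte barcode was 6 for Prg4 and 103 for Fn1. With every barcode thinned to 1000 UMIs, the Prg4 share was 10.2% of 1981 leukocyte and 87.8% of 197 stromal barcodes. For the other 8 genes the leukocyte share was between 0.93% and 4.72% unthinned and at most 0.86% thinned.

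The ratio of leukocyte to stromal level was compared with that of 15 stromal reference genes, such as Dcn and the collagen VI genes, whose pooled ratio was 0.588%. Dcn (0.554%) supplied 16524 of their 19554 summed stromal CPM, so the pooled ratio is mainly that of Dcn. Col6a1, Col6a2 and Col6a3 lay higher, at 0.671%, 0.821% and 0.877%, a range that holds the values of Comp and Cilp given below. Prg4 lay lowest at 0.359% (0.338 to 0.380), and Chad at 0.391% (0.261 to 0.563). Sox9 (0.586%), Clu (0.598%) and Acan (0.632%) lay close to the pooled ratio. Cytl1 was at 0.764%, but its interval (0.524 to 1.08) held the pooled ratio. Comp (0.783%, 0.631 to 0.961), Cilp (0.802%, 0.633 to 1.00) and Sox5 (0.992%, 0.661 to 1.43) were above it. The Sox5 value rests on 29 leukocyte UMIs, 9 of them in 1 barcode. Fn1 was highest at 1.22% (1.16 to 1.29). The reference genes themselves ran from 0.364% to 3.73%, and the lower bound of no gene of the set passed their highest. It did so for 88.1% of the 2958 genes at 50 CPM or more in stromal barcodes, and for 90.9% of them (again none of the set) when the reference was limited to its 8 genes at 100 CPM or more, the highest of which was at 1.75%. The set was chosen for this pattern, and nothing is read from these shares.

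Fn1 differed from the others in 1 leukocyte cluster. In the 140 barcodes led by the platelet chemokines Pf4 and Ppbp and the MHC class II gene H2-Aa, Fn1 stood at 466 CPM (432 to 503), against 63.0 to 136 CPM in the other 4 leukocyte clusters. Prg4 was at 74.4 CPM in the same barcodes and at 76.2 to 167 CPM in the other 4. There were 6.27 Fn1 UMIs for each Prg4 UMI in this cluster, 0.843 in the other leukocytes and 0.400 in stromal barcodes. The cluster therefore held Fn1 without a matching amount of Prg4.

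The Fn1 UMIs of that cluster were concentrated. Its median barcode had 1 Fn1 UMI and its highest 103, and 20 barcodes with more than 10 held 508 of the 683 UMIs with only 24 Prg4 UMIs. No barcode of the other leukocyte clusters had more than 10. Fn1 was present in OVX (381 CPM in 46 barcodes) and in sham barcodes (490 CPM in 72) of the cluster. Sox5 also stood out there, at 3.42% of its stromal level, but 9 of its 12 UMIs were in 1 barcode.

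**Figure D4:**
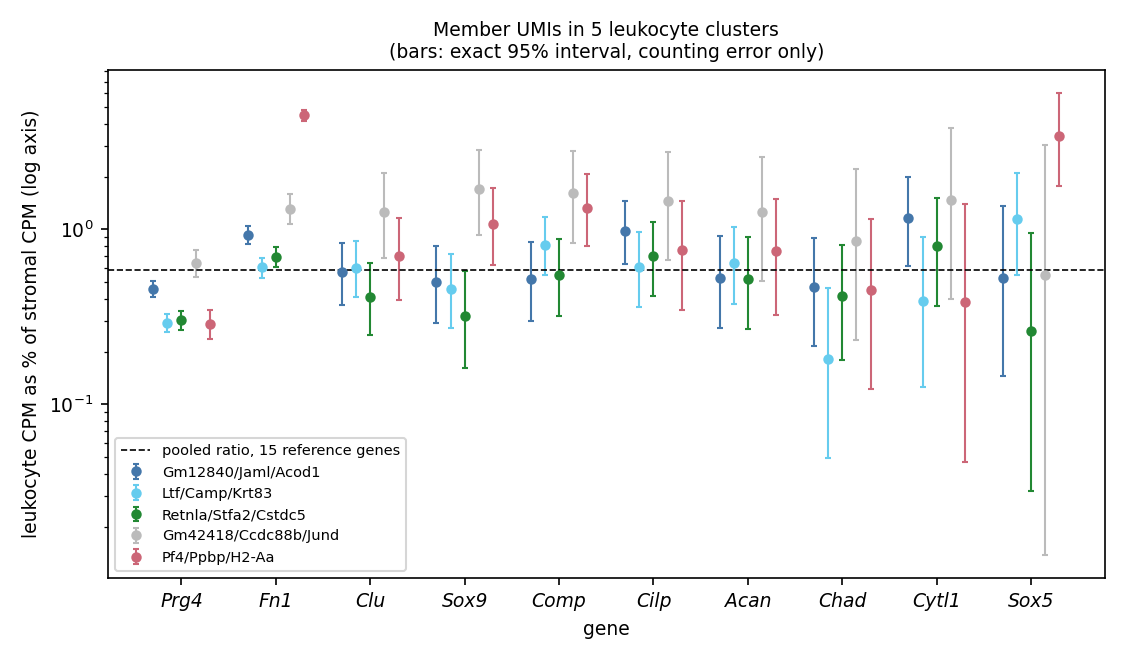
Level of each gene in the 5 leukocyte clusters as a percent of its stromal CPM (log axis), with exact 95% intervals; the dashed line is the pooled ratio of the reference genes over all leukocytes, 0.588%. Fn1 in Pf4/Ppbp/H2-Aa lies at 4.49%, apart from its other values, and Gm42418/Ccdc88b/Jund is the highest cluster for the other genes except Sox5, for which it rests on 1 UMI.

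The Gm42418/Ccdc88b/Jund cluster, which had the lowest median depth (2349 UMIs), also had the highest pooled reference ratio (0.981%, against 0.471% to 0.699% in the others). Prg4 was highest there, at 167 CPM (139 to 199), and 0.656 times the reference ratio. In the other clusters Prg4 was at 0.504 to 0.655 times the reference, so it kept a similar distance from it.

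OVX and sham stromal barcodes were set side by side as 1 pool each, so the ratios compare the barcodes of these pools and not the conditions. The 38 OVX barcodes had a median of 25198 UMIs and the 54 sham barcodes of 23128. Another hashtag rule, by which the hashtag with at least 80% of at least 10 hashtag UMIs was taken, gave 28 OVX and 112 sham barcodes. Median hashtag UMIs were 2092 (OVX) and 4810 (sham) by HTODemux, and 4558 and 1840 by this second rule. Stromal barcodes that HTODemux placed in neither had a median of 472. Over all stromal barcodes the medians were 89 for hashtag 1 and 457 for hashtag 2. The part that background hashtag UMIs play in the calls of the second rule was not tested. Ratios are given first by HTODemux and then by the second rule.

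Chad was the lowest in OVX. It ranged from 0 to 46.7 UMIs per 10000 with a median of 0.839 in OVX, and from 0 to 70.0 with a median of 0.491 in sham, so that the groups overlapped and the medians ran against the sums. By the second rule the medians were 0.778 in OVX and 1.38 in sham and ran with the sums. The summed level was 255 CPM in OVX and 689 CPM in sham, a ratio of 0.370 (0.326 to 0.419), and 0.436 by the second rule. One sham barcode held 26.9% of the sham Chad UMIs, and 1 OVX barcode held 22.4% of the OVX Chad UMIs (45.6% by the second rule). Without the barcode richest in Chad in each condition the ratio was 0.388, and 0.278 by the second rule. With equal weight per barcode the ratio was 0.651 and 0.746, above 0.5 by both rules.

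Comp, which varied with Chad, ranged from 0 to 45.8 with a median of 2.34 in OVX and from 0 to 73.7 with a median of 2.17 in sham, and the medians were 1.43 and 3.29 by the second rule. Its summed ratio was 0.577 (0.530 to 0.628) and 0.528, and 0.782 and 0.664 with equal weight. Without the barcode richest in Comp in each condition it was 0.496. Cytl1, the third gene of that grouping, went the other way by summed UMIs under HTODemux. It had 243 CPM in OVX and 153 in sham (ratio 1.59, 1.34 to 1.89), and the ratio turned to 0.688 by the second rule. It ranged from 0 to 56.7 with a median of 0.172 in OVX and from 0 to 15.8 with a median of 0.256 in sham. The Cytl1 medians thus ran against the sums, and by the second rule they were 0.172 and 0.403. Its equal-weight ratios were 3.11 and 1.46, and a single barcode held 22.5% of its OVX UMIs.

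Prg4 ranged from 0 to 768 UMIs per 10000 with a median of 137 in OVX and from 0 to 794 with a median of 75.5 in sham. Its summed level was 23034 CPM in OVX and 14589 CPM in sham, a ratio of 1.58 (1.55 to 1.61), which was 1.07 by the second rule. With equal weight it was 1.20 and then 0.944, and without the richest barcode 1.41 and then 0.936. The second-rule medians were 137 in OVX and 176 in sham. By HTODemux Prg4 was thus higher in OVX by each measure, whereas by the second rule the direction depended on the measure. Fn1 was at 10602 and 8025 CPM, a ratio of 1.32 and then 1.11, or 1.01 and 1.00 with equal weight. The groups overlapped over almost their whole range for both genes.

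Sox5 and Cilp were higher in OVX by summed UMIs under both rules. Sox5 ranged from 0 to 10.1 with a median of 2.48 in OVX and from 0 to 6.77 with a median of 1.65 in sham. Its summed ratios were 1.60 (1.37 to 1.87) and 1.47, with 1.49 and 1.36 at equal weight, and by sub-cluster and rule they lay between 1.25 and 1.65. Cilp ranged from 0 to 57.3 with a median of 3.72 in OVX and from 0 to 39.7 with a median of 3.83 in sham, and its summed ratio was 1.66 (1.53 to 1.8) and 1.56, with 1.59 and 1.68 at equal weight. The Cilp median was lower in OVX. By sub-cluster the Cilp ratio was 2.60 and 2.00 in Cxcl5/Ctla2a, 0.99 and 1.51 in Csta3/Slurp1, and 0.81 and 0.68 in Saa2/1520401A03Rik. A single OVX barcode held 20.6% of the OVX Cilp UMIs, and 27.5% by the second rule. Sox9 had ratios of 1.19 and 1.13, and Acan of 1.09 and 1.13, which turned to 0.956 and 0.968 with equal weight. Clu was at 1430 and 907 CPM, a ratio of 1.58 that turned to 0.745 by the second rule.

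By summed UMIs 1 of the 10 genes, Chad, was 2-fold or more lower in OVX, as were 1.15% of the 3293 genes that reached 50 CPM in OVX or in sham, and by the second rule also Chad alone (1.08% of 3242 genes). None was 2-fold or more higher by summed UMIs (1.25% of genes, and 1.36% by the second rule). With equal weight per barcode Chad was no longer 2-fold lower, and Cytl1 was 3.11-fold higher by HTODemux, although its median was lower in OVX.

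**Figure D5:**
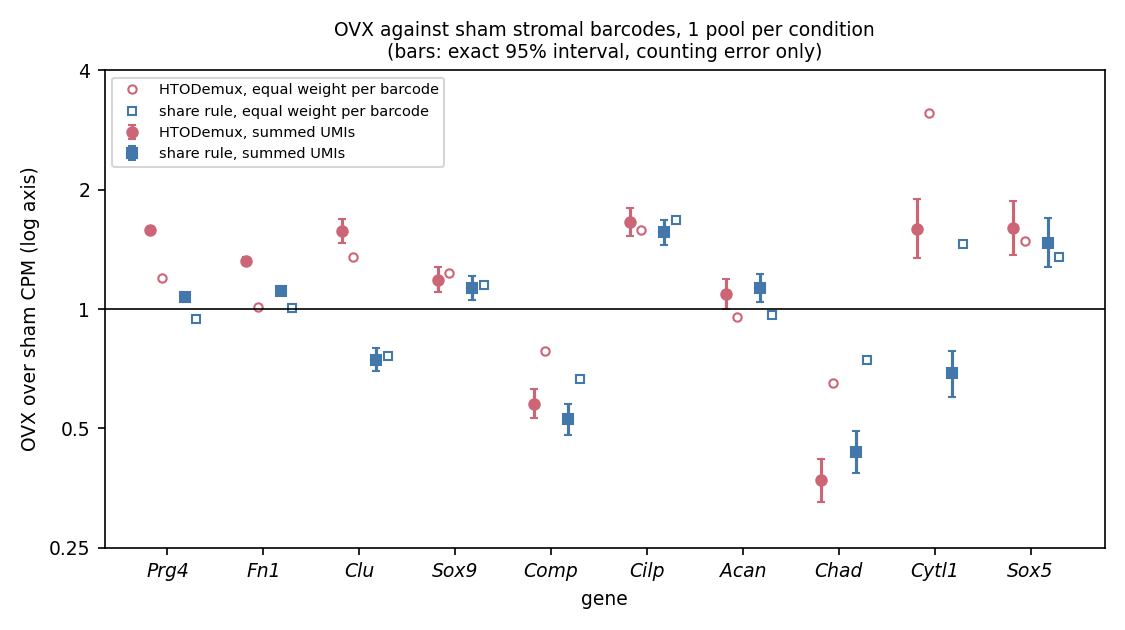
Ratio of OVX to sham CPM (log axis) for each gene among stromal barcodes, by HTODemux (38 OVX and 54 sham) and by the second hashtag rule (28 and 112); filled points are summed UMIs with exact 95% intervals and open points give each barcode equal weight. Chad and Comp lie below 1 under all 4 settings, Cilp, Sox9 and Sox5 above it, and Clu, Cytl1, Prg4 and Acan on either side.

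Within sub-clusters the ratio of Chad was below 1 by both rules, except in Saa2/1520401A03Rik by the second. The 2 rules class the same stromal barcodes, so their values are not separate observations. By HTODemux it was 0.40 in Cxcl5/Ctla2a, 0.15 in Csta3/Slurp1 and 0.58 in Saa2/1520401A03Rik, and by the second rule 0.15, 0.14 and 1.21. Comp was at 0.16, 0.26 and 1.24, and by the second rule at 0.11, 0.22 and 1.60, so that in Saa2/1520401A03Rik it was higher in OVX by both rules. Each value rests on 8 to 16 OVX barcodes and 9 to 55 sham barcodes, and those of Chad in Cxcl5/Ctla2a on only 24 and 15 OVX UMIs. Prg4 was at 1.74, 1.36 and 0.61 by HTODemux and at 0.91, 1.23 and 0.65 by the second rule, so that it turned in Cxcl5/Ctla2a.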

How the data were processed

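The authors made the deposited UMI counts with Cell Ranger on mm10 (version 6.0.0 per the file headers, 6.0.1 per the submitters' processing notes). The counts are whole numbers without normalization for 32285 genes and 2 hashtags in 2349 called barcodes, so the calling of barcodes is part of them. Hashtags were read from this matrix, and the hashtag sample of its own was not analysed here. HTODemux of Seurat 5.3.0 in R 4.3.3 (quantile 0.99 for a positive call) gave each barcode its condition. Barcodes were clustered with scanpy 1.11.5 and the Louvain method of igraph 0.11.9 (counts scaled to 10000, logged, 2000 variable genes without the 10 genes described, 30 components, 15 neighbours, 6 clusters, resolution 0.4). Stromal barcodes were clustered again with 1000 variable genes and 20 components into 3. No barcode was removed, and no doublet caller was run. CPM are summed UMIs scaled to 1000000, and ratios (fold) of CPM were computed from the deposited counts.

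With 1 pool per condition there was no test, p-value or standard error. Intervals are exact at 95% (Poisson, Clopper-Pearson, or conditional binomial for ratios) and cover counting error only. Calculations were tested on simulated data. The genes and all lists were chosen with earlier results of these data known. Genes named are the 10, up to 4 of highest CPM in each list with defining genes at 0, the 3 genes of highest r for each gene, the leading genes of clusters, and those said to have been singled out later. Coordinates are from GENCODE vM21 (GRCm38), which may differ slightly from the annotation used for counting. Alternatives were the 10 genes kept for clustering, a marker rule for stromal barcodes, a filter on barcodes (500 genes, 10% mitochondrial UMIs), equal weight per barcode, another hashtag rule, thinning, Spearman correlation and other numbers of sub-clusters.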

Additional observations from a re-analysis of the deposited data

How the results depend on the processing

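The 10-fold difference between stromal and leukocyte barcodes for all 10 genes, and the absence of a gene above every reference ratio, held under each alternative run. The number of stromal barcodes was 194 to 210. Pairs at r of 0.3 or more numbered 15 to 24. With 2 sub-clusters 5 genes (Chad, Comp, Cytl1, Clu and Sox9) were 2-fold or more apart, against 0 with 3 or 4, and 6 from highest to lowest sub-cluster. Genes 2-fold or more lower in OVX numbered 1, but 0 with equal weight per barcode and 2 (Chad and Comp) without the richest barcode in each condition. No share of all genes is given for 2 or 4 sub-clusters, for equal weight or for removal of the richest barcode. Nothing is read from those counts. By the second hashtag rule the log2 ratio of OVX to sham turned to -0.54 for Cytl1 (from 0.67) and -0.42 for Clu (from 0.66). The cause was not tested. The comparison of highest with lowest sub-cluster, the removal of the richest barcode, the limit to unthinned barcodes of 5000 UMIs or more and the limit to reference genes at 100 CPM or more were chosen after seeing the data. No paired analysis was possible because both conditions were run as 1 pool each, without replicates. Of 209 stromal barcodes, 111 had no clear hashtag and 28 had fewer than 5000 UMIs.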

Other observations

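The 111 stromal barcodes without a clear hashtag, which enter no comparison of conditions, held Prg4 at 34947 CPM, Fn1 at 11298 CPM, Chad at 723 CPM and Cytl1 at 555 CPM. The 6 barcodes with both hashtags held Prg4 at 28495 CPM and Fn1 at 18358 CPM. Sox9 was at 1081 CPM and Sox5 at 249 CPM in the barcodes without a clear hashtag.

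The 20 barcodes of the Pf4/Ppbp/H2-Aa cluster with more than 10 Fn1 UMIs were chosen by that value, so their other genes are given as values only. Against the other 120 barcodes of the cluster, the arginase gene Arg1 was at 4119 and 2010 CPM, Adgre1 at 101 and 23.3 CPM, the macrophage gene Mrc1 at 4.60 and 10.7 CPM, Pf4 at 4431 and 1270 CPM, and Ppbp at 1618 and 156 CPM. Of 10 neutrophil markers 6 were lower in the 20 barcodes, such as S100a8 (6679 and 44614 CPM) and Camp (20.7 and 1099 CPM), and 4 were higher, Ly6g (108 and 62.2 CPM), Csf3r (91.9 and 70.0 CPM), Mmp8 (791 and 619 CPM) and Mmp9 (193 and 126 CPM). The complement genes C1qa, C1qb and C1qc and the megakaryocyte gene Gp9 had no UMI in these 20 barcodes.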
